A study of Arabidopsis thaliana with 28 samples.

Results

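The GRP3 cluster is a run of glycine-rich protein genes on chromosome 2 of Arabidopsis thaliana. Its 5 members, GRP3S (AT2G05380), AT2G05510, GRP3 (AT2G05520), AT2G05530 and AT2G05540, were taken by their locus identifiers from 23686 rows measured in whole seedlings, and all 5 had a row. The cluster was chosen by measured values, in that AT2G05510 was far lower in mock-treated aba2-1 than in mock-treated Col-0, so that contrast is described here without a test. No single pattern ran through the cluster. AT2G05510 rose with the dose of abscisic acid (ABA) in aba2-1, from the mock libraries in which it was noticed as low. AT2G05540 was higher in aba2-1 than in Col-0 at 50 nM ABA, and GRP3S rose in aba2-1 at 50 nM ABA. GRP3 passed the main test (limma) in no comparison, and AT2G05530 was close to silent.

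Glycine-rich proteins carry long runs of glycine and many are secreted into the plant cell wall. GRP3 is known to bind the extracellular part of the wall-associated kinase WAK1, in a complex with the phosphatase KAPP, and GRP3S is its close relative of shorter length. ABA is the hormone that closes stomata and switches on genes of the drought response, and transcripts of GRP3 have been described as induced by it. No specific role is given here to AT2G05510, AT2G05530 or AT2G05540.

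RNA was sequenced from 28 samples in 10 groups. Wild-type Col-0 and aba2-1, which carries a mutation in the ABA biosynthesis gene ABA2, received mock solution, 10 nM ABA or 50 nM ABA, and 4 CA lines, named for the receptors PYR1, PYL4, PYL5 and PYL6, received mock only. PYL and PYR1 proteins are ABA receptors and CA denotes constitutively active forms in the receptor literature. The labels give neither the background genotype of these lines nor the promoter that drives the receptor, and they call all plants T3 line material, and whether each line is 1 insertion event is not stated. Per the labels' protocols, plants spent 7 days on plates and 3 h in liquid medium, although another label states 10 days after germination. The Col-0 groups given mock or 10 nM ABA had 2 samples each and the other 8 groups had 3. Replicates are not stated to be separate cultures, so the spread behind every p-value is that among these samples and could be technical.

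Depth ranged from 11.99 to 30.94 M reads per sample. All 12 root, 8 leaf and 5 guard cell markers had reads, which fits the whole-seedling label. In 3 libraries, chosen after seeing the data, values stood apart from the rest. The first was aba2-1 10 nM ABA replicate 3, where 5 rows took 74.9% of the reads, and the others were replicate 2 of aba2-1 50 nM ABA and of PYL5 CA. Others also lay far from their group mates. The median absolute log2 difference from the mates was 0.458 and 0.392 for aba2-1 50 nM ABA replicates 2 and 3. It was 0.378 and 0.340 for PYL5 CA replicates 2 and 3, and 0.205 for aba2-1 10 nM ABA replicate 3. The normalised count of the PYR1 locus was 571 ± 163 (SD, n = 3) in the line labelled PYR1 CA. It was 1529 ± 110 (n = 3) in aba2-1 mock and 2581 ± 236 (n = 2) in Col-0 mock, so this locus did not follow that label.

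Within 67.7 kb of the plus strand, the RefSeq annotation of TAIR10.1 places GRP3S at chr2:1966610-1968142, AT2G05510 at chr2:2015624-2016772, GRP3 at chr2:2025991-2027283, AT2G05530 at chr2:2029687-2030544 and AT2G05540 at chr2:2033154-2034283. Each has 2 coding exons. GRP3, AT2G05530 and AT2G05540 sit 2.40 and 2.61 kb apart, AT2G05510 lies 9.22 kb before GRP3, and GRP3S is the outlying member. A further glycine-rich protein gene, GRP9 (AT2G05440), lies between GRP3S and AT2G05510 at chr2:1993038-1994177, and was not a member by the rule. GRP9 is described beside AT2G05510 because its coding sequence is 73.1% identical to that of AT2G05510, the highest identity among the 6 genes. Members were less alike, from 56.9% between AT2G05510 and AT2G05540 to 68.9% between GRP3 and AT2G05530.

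**Figure D1:**
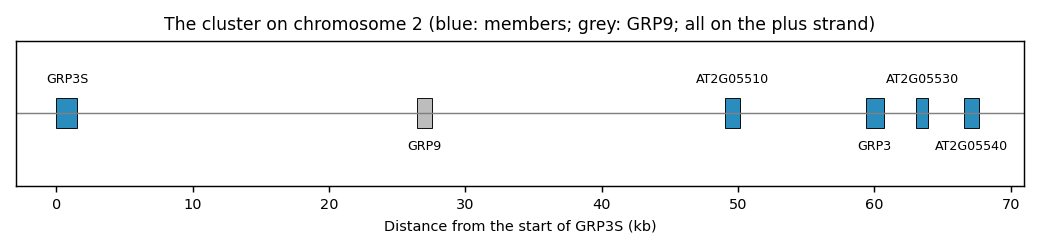
Positions of the 5 members (blue) and GRP9 (grey) along chromosome 2, in kb from the start of GRP3S; box width is the annotated gene length. The last 4 members lie together at the right end and GRP3S stands alone at the left.

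Glycine codons are what the members share. They make up 28.03% of the 132 codons of GRP3S, 41.7% of 127 in AT2G05510, 32.4% of 145 in GRP3, 30.4% of 115 in AT2G05530 and 25.9% of 135 in AT2G05540, against a median of 6.14% over 27361 loci. The richest window of 30 codons in each member is printed to show the repeats, with glycine codons in capitals; the counts are 21, 22, 19, 20 and 19 in the order shown. Short spacers stand between the runs of glycine codons.
GRP3S: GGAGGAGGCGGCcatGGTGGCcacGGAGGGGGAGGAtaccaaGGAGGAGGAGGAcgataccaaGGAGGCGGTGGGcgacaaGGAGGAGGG
AT2G05510: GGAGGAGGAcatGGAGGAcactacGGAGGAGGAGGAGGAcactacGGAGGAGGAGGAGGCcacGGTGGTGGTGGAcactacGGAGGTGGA
GRP3: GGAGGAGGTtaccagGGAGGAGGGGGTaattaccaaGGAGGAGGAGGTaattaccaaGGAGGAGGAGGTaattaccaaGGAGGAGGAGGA
AT2G05530: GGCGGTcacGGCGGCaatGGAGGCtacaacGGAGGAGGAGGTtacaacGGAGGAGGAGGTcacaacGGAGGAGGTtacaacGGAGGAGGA
AT2G05540: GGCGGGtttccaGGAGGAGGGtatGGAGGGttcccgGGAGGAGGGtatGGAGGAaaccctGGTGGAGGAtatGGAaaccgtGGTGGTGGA

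Sequence shared between the genes limits how surely a read is placed. Of the 31-base words in its transcripts, AT2G05510 shared 4.22% with GRP9, and GRP3S shared 3.85% with GRP3. AT2G05530 and AT2G05540 shared 0 with any other gene of the cluster. Levels of AT2G05510, GRP9, GRP3S and GRP3 are uncertain to the extent that such reads were divided between them.

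Upstream sequence was read because ABA-responsive transcription factors bind elements with the core ACGTG. The 250 bases before the annotated start of AT2G05510 (chr2:2015374-2015623) and of GRP9 (chr2:1992788-1993037), both on the plus strand of RefSeq TAIR10.1, are printed because both hold 2 such cores; capitals mark ACGTG on either strand (written CACGT on the reverse strand) and, in GRP9, also CCGAC, the core of the drought-responsive element.
AT2G05510: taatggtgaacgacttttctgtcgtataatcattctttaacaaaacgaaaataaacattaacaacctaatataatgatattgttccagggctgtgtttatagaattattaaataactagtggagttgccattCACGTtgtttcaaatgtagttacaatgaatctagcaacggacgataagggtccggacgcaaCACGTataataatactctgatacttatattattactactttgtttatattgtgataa
GRP9: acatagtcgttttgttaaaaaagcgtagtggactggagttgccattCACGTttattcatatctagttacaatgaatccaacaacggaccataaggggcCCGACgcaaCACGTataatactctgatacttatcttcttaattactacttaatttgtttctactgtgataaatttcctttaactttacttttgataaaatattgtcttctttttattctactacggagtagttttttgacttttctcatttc
In AT2G05510 the cores begin 118 and 57 bases before the start, and in GRP9 204 and 143 bases before it, so both pairs are 61 bases apart. Over the 66 bases from the first core to the end of the second, 57 bases are identical between the genes. GRP3S, AT2G05530 and AT2G05540 hold 1 core each, at 97, 139 and 23 bases, and GRP3 holds 0. Among 27443 protein-coding genes, 22.9% hold at least 1 core in a window of this length and 8.84% hold at least 2. CACGTG, the longer palindrome that contains the core, was in 0 of the 6 windows and is in 6.49% of genes; CCGAC is in 12% of genes. These are letter matches, not binding sites.

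The members differ widely in abundance. Values are the deposited normalised read counts, each a read count divided by a size factor of its sample. Per kb of the longest transcript, the median over 28 samples was 14746 for GRP3S, 10452 for GRP3, 3085 for AT2G05540, 302 for AT2G05510 and 6.75 for AT2G05530. GRP3 and GRP3S together held between 85.7% and 93.8% of the normalised count of the cluster in every sample. Their levels varied least, with coefficients of variation over all samples of 24.5% and 27.5%, against 34.2% for AT2G05540 and 71.3% for AT2G05510. In bulk seedlings, fewer cells of a type that expresses a gene and less RNA per cell cannot be told apart.

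**Figure D2:**
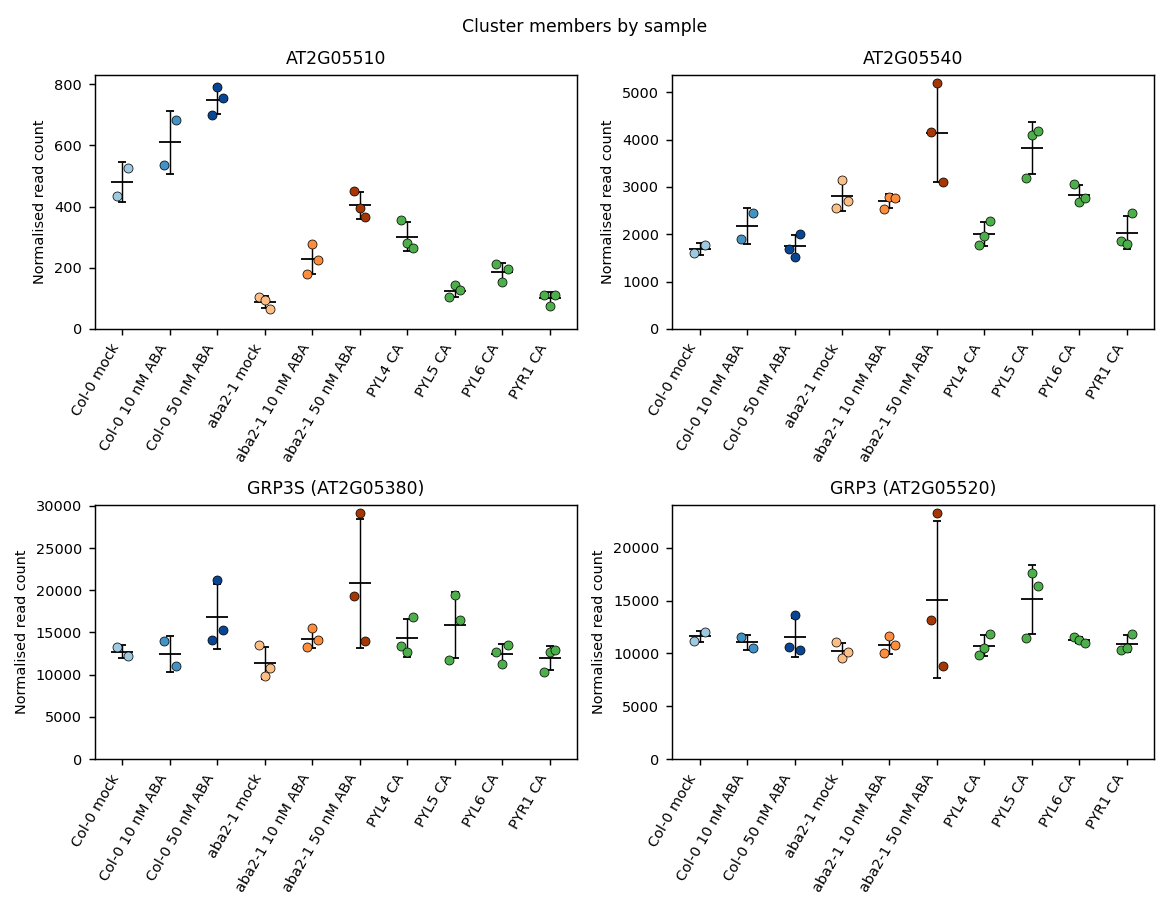
Normalised read count (vertical axes, from 0) of 4 members in each sample, by group; points are samples, horizontal marks are group means and bars are SD. AT2G05510 climbs with ABA dose in aba2-1, lies higher in Col-0, where its dose differences did not pass, and is lowest in aba2-1 mock and PYR1 CA, while the highest GRP3S and GRP3 values come from a single aba2-1 50 nM ABA library.

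Mock-treated seedlings showed the contrast by which AT2G05510 was noticed. Its normalised counts were 435 and 525 in Col-0 mock and 103, 92.9 and 65.8 in aba2-1 mock. The aba2-1 libraries lay far below both Col-0 libraries, at a mean 5.51-fold lower (87.2 ± 19.1, n = 3, against 480 ± 64.0, n = 2). The number of AT2G05510 reads behind the aba2-1 values was 99, 77 and 58. Of the 5 members, 2 (AT2G05510 and GRP3) were lower in aba2-1 mock with no overlap of libraries and 1 (AT2G05540) was higher; 15.6% of all tested loci were lower and 16.2% were higher without overlap, and nothing is read from these counts because the contrast chose the gene. The 5 guard cell markers summed to between 1137 and 1201 in aba2-1 mock and between 1248 and 1287 in Col-0 mock, and the 12 root markers to between 8574 and 10228 and between 7976 and 8478; their part in the difference was not tested.

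ABA given to aba2-1 raised AT2G05510 step by step. After 10 nM ABA its normalised counts were 179, 276 and 225, and after 50 nM ABA they were 451, 397 and 364. The 3 groups of aba2-1 did not overlap, and only the 50 nM group reached values seen in Col-0 mock. The mean was 2.60-fold that of aba2-1 mock at 10 nM (log2 difference 1.37, SE 0.19, limma, adjusted p = 0.00031) and 4.64-fold at 50 nM (log2 2.22, SE 0.19, adjusted p = 2e-08), both on the log2(value + 1) scale. Both differences from mock reuse the aba2-1 mock libraries in which the gene was noticed as low, so their p-values may be too small. From 10 to 50 nM AT2G05510 rose by a further 1.78-fold (log2 0.85, SE 0.19, limma, adjusted p = 0.01). That last step was not called in a fit on the compared groups alone (adjusted p = 0.27), without aba2-1 10 nM ABA replicate 1 (0.055) or without the 3 libraries that stood apart (0.051).

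In Col-0 the same gene started higher and its dose differences did not pass. AT2G05510 held 537 and 683 at 10 nM and 700, 791 and 756 at 50 nM, and each dose lay above the one before it without overlap. Means were 1.27-fold (log2 0.34, SE 0.24, limma, adjusted p = 1) and 1.56-fold (log2 0.65, SE 0.22, adjusted p = 0.19) those of Col-0 mock, and the 50 nM difference passed in a fit on the 2 compared groups alone (adjusted p = 0.0090). The log2 difference from mock was greater in aba2-1 than in Col-0 by 1.03 at 10 nM (SE 0.31) and by 1.57 at 50 nM (SE 0.29). Both values contain the mock contrast that chose the gene, so they are descriptions without a test. Set against Col-0 at the same dose, AT2G05510 in aba2-1 was 2.69-fold lower at 10 nM (log2 -1.43, SE 0.22, adjusted p = 0.0036, or 0.16 without Col-0 10 nM ABA replicate 3) and 1.85-fold lower at 50 nM (log2 -0.89, SE 0.19, adjusted p = 0.0029).

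Across the members, few dose differences passed, and each count is read against the share of all 21023 tested loci that passed at adjusted p under 0.05. In Col-0 at 10 nM ABA 0 of 5 members passed against mock in limma (0 at an unadjusted p under 0.05, 0 in edgeR and 0 in DESeq2), where 0.0285% of loci passed. At 50 nM in Col-0 the count was 0 in limma, edgeR and DESeq2, with 1 at an unadjusted p under 0.05, against 1.01% of loci. Between 50 and 10 nM in Col-0 it was 0 by all 3 tools and at an unadjusted p under 0.05, with 0% of loci called. In aba2-1 AT2G05510 alone passed at 10 nM ABA, where 0.975% of loci passed. At 50 nM 3 members rose in limma (AT2G05510, GRP3S and AT2G05540), where 24.8% of loci passed, and edgeR called 3 members and DESeq2 4. Both comparisons use the mock libraries in which AT2G05510 was noticed as low, so nothing is read from its place in these counts. From 10 to 50 nM in aba2-1, AT2G05510 and AT2G05540 passed, where 11.6% of loci passed. AT2G05530 also fell under the threshold but is left out of this count, because it passed the filter on low values only through the 50 nM libraries.

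Between genotypes, AT2G05510 was the 1 member called at 10 nM ABA, where 0.328% of loci passed. At 50 nM 2 members were called by limma, AT2G05510 lower and AT2G05540 higher in aba2-1, where 21.1% of loci passed. With edgeR and with DESeq2, 3 members were called there. Leaving out AT2G05510, whose interaction of genotype and dose contains the contrast that chose it, the interaction was called for 0 of the other 4 members at 10 nM and at 50 nM by limma, edgeR and DESeq2, and 0 had an unadjusted p under 0.05 in limma. Of all loci 0% were called at 10 nM and 2.05% at 50 nM. Comparisons that use the same mock or ABA libraries are not independent of each other, nor of the mock contrast that drew notice to the cluster.

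**Figure D3:**
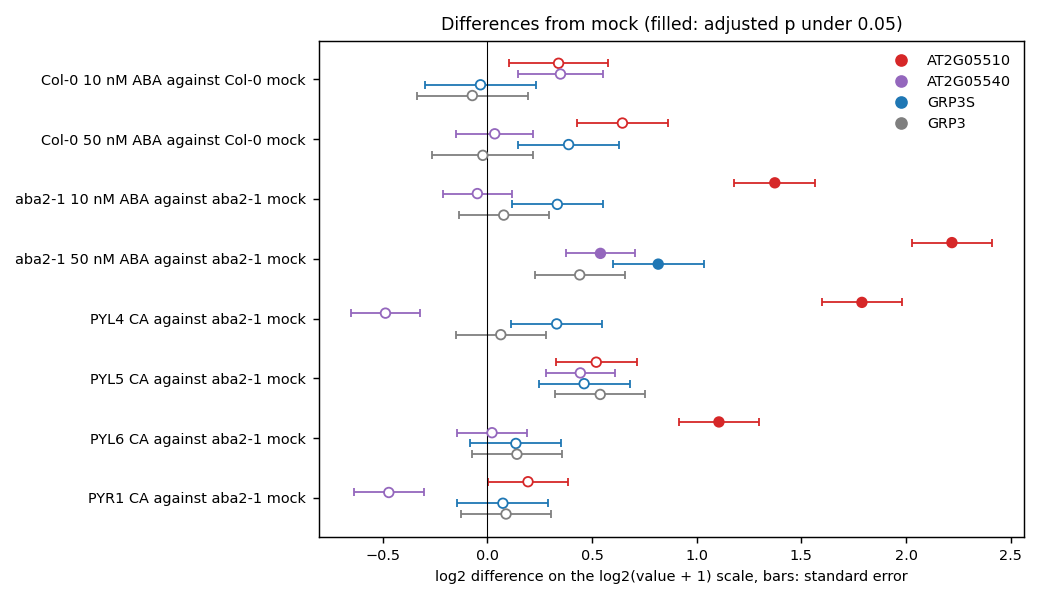
Log2 differences of 4 members from the mock group named on the vertical axis, with standard errors; filled points passed at adjusted p under 0.05 (limma). AT2G05510 stands to the right at both doses in aba2-1 and in PYL4 CA and PYL6 CA, and the comparisons in the lower 6 rows share the aba2-1 mock libraries.

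The CA lines separated for AT2G05510. Its normalised counts were 355, 282 and 266 in PYL4 CA, 211, 154 and 197 in PYL6 CA, 104, 144 and 125 in PYL5 CA, and 112, 75.2 and 112 in the line labelled PYR1 CA. PYL4 CA was highest in every library, PYL6 CA came next, and PYL5 CA and PYR1 CA overlapped. The spread among the 4 lines passed a limma F test (log2 range 1.59, adjusted p = 0.00018), one of 2 members to do so with AT2G05540, against 3.36% of loci.

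Beside aba2-1 mock, AT2G05510 rose 3.45-fold in PYL4 CA (log2 1.79, SE 0.19, limma, adjusted p = 9.6e-06) and 2.15-fold in PYL6 CA (log2 1.11, SE 0.19, adjusted p = 0.015). The PYL6 CA call was lost without aba2-1 mock replicate 3 (adjusted p = 0.15), without PYL6 CA replicate 1 (0.11) and without PYL6 CA replicate 3 (0.11). Log2 differences were 0.52 (SE 0.19, adjusted p = 0.23) in PYL5 CA and 0.19 (SE 0.19, adjusted p = 0.83) in PYR1 CA. Thus AT2G05510 was the 1 member called in PYL4 CA and in PYL6 CA, where 2.48% and 0.119% of loci passed. The aba2-1 mock libraries are those in which this gene was noticed as low, so its p-values here may be too small. Nothing is read from its place in these counts. In PYL5 CA 0 members were called by limma, edgeR or DESeq2, although 4 had an unadjusted p under 0.05, and 0.157% of loci passed. In PYR1 CA 0 were called by the same 3 tools, with 1 at an unadjusted p under 0.05, against 1.15% of loci.

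In every CA library AT2G05510 lay below both Col-0 mock libraries. It was 4.81-fold lower in PYR1 CA (log2 -2.27, SE 0.22, limma, adjusted p = 2.7e-06), 3.86-fold lower in PYL5 CA (log2 -1.95, SE 0.22, adjusted p = 3.4e-05) and 2.56-fold lower in PYL6 CA (log2 -1.36, SE 0.22, adjusted p = 0.0034, or 0.19 without Col-0 mock replicate 2). PYL4 CA lay below both Col-0 libraries, with a log2 difference of -0.68 (SE 0.22) that did not pass (adjusted p = 0.13; 0.04 in DESeq2 and 0.021 in a fit on the 2 groups alone). Against Col-0 mock 0 members were called in PYL4 CA by limma and edgeR and 1 by DESeq2, with 1 at an unadjusted p under 0.05 and 1.44% of loci called. In PYL5 CA 2 members were called, in PYL6 CA 1 and in PYR1 CA 1, against 1.59%, 0.157% and 2.81% of loci. For AT2G05510 the Col-0 mock libraries are the high side of the contrast that chose it, so its p-values here may be too small. Nothing is read from its place in these counts.

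Over the 10 groups, the order of AT2G05510 from high to low was Col-0 50 nM ABA (mean 749 ± 46.1, n = 3), Col-0 10 nM ABA (610 ± 103, n = 2), Col-0 mock (480), aba2-1 50 nM ABA (404 ± 44.0, n = 3), PYL4 CA (301 ± 47.2), aba2-1 10 nM ABA (227 ± 48.4), PYL6 CA (187 ± 29.5), PYL5 CA (124 ± 20.2), PYR1 CA (99.8 ± 21.3) and aba2-1 mock (87.2). Neighbours in that order whose libraries overlapped were Col-0 mock with aba2-1 50 nM ABA, PYL4 CA with aba2-1 10 nM ABA, aba2-1 10 nM ABA with PYL6 CA, PYL5 CA with PYR1 CA, and PYR1 CA with aba2-1 mock. The other 4 pairs of neighbours did not overlap.

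AT2G05540 libraries of aba2-1 lay above those of Col-0 at every dose, but of the doses tested only 50 nM ABA gave a difference that passed. Its normalised counts were 1604 and 1782 in Col-0 mock, 1897 and 2443 in Col-0 at 10 nM ABA, and 1690, 1528 and 2014 in Col-0 at 50 nM ABA. In aba2-1 they were 2552, 3151 and 2699 with mock, 2531, 2794 and 2776 at 10 nM, and 4152, 5189 and 3098 at 50 nM. All 9 aba2-1 libraries exceeded all 7 Col-0 libraries. With mock alone, 16.2% of tested loci were higher in aba2-1 without overlap, and the share over all doses was not computed. At 50 nM ABA the gene was 2.38-fold higher in aba2-1 than in Col-0 (log2 1.23, SE 0.17, limma, adjusted p = 3.4e-05; 0.054 in a fit on the 2 groups alone), and at 10 nM 1.24-fold (log2 0.32, SE 0.19, adjusted p = 0.74). The highest value, 5189, came from aba2-1 50 nM ABA replicate 2, one of the libraries that stood apart.

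Within aba2-1, AT2G05540 was 1.48-fold higher at 50 nM than with mock (log2 0.54, SE 0.17, limma, adjusted p = 0.023), and the libraries overlapped. This call was lost without aba2-1 mock replicate 1 (adjusted p = 0.08) or 3 (0.067), without aba2-1 50 nM ABA replicate 1 (0.055) or 2 (0.18), and in a fit on the 2 groups alone (0.24). Against 10 nM it was 1.54-fold higher without overlap (log2 0.59, SE 0.17, adjusted p = 0.029), and lost without any 1 of aba2-1 10 nM ABA replicates 1, 2 and 3 (adjusted p = 0.084, 0.062 and 0.057) or of aba2-1 50 nM ABA replicates 1 and 2 (0.061 and 0.23). In Col-0 AT2G05540 at 50 nM stood at 1.03-fold of mock (log2 0.04, SE 0.19, adjusted p = 1). Among aba2-1 50 nM ABA libraries the leaf marker sum ran from 279925 to 562252 and the root marker sum from 6371 to 10421; their part in these differences was not tested.

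Among the CA lines AT2G05540 held 1769, 1955 and 2279 in PYL4 CA, 1856, 1801 and 2439 in PYR1 CA, 3061, 2678 and 2770 in PYL6 CA, and 3182, 4107 and 4186 in PYL5 CA. PYL4 CA and PYR1 CA lay below every aba2-1 mock library, PYL6 CA overlapped that group, and PYL5 CA lay above it. The lines differed (log2 range 0.93, limma F test, adjusted p = 0.0033). Differences from aba2-1 mock were -0.49 in PYL4 CA, -0.47 in PYR1 CA, 0.44 in PYL5 CA and 0.02 in PYL6 CA (log2, SE 0.17 each) and did not pass (adjusted p = 0.14, 0.18, 0.23 and 1). Against Col-0 mock AT2G05540 was 2.26-fold higher in PYL5 CA (log2 1.17, SE 0.19, adjusted p = 0.0016; 0.063 without Col-0 mock replicate 1 and 0.21 in a fit on the 2 groups alone) and 1.68-fold higher in PYL6 CA, which did not pass (log2 0.74, SE 0.19, adjusted p = 0.14).

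GRP3S and GRP3, the abundant pair, varied between libraries of a group, most widely in aba2-1 50 nM ABA and PYL5 CA. GRP3S held 13243 and 12178 in Col-0 mock, 14003 and 10995 at 10 nM ABA, and 14069, 21255 and 15333 at 50 nM. In aba2-1 GRP3S held 13543, 9851 and 10846 with mock, 13252, 15495 and 14114 at 10 nM, and 19309, 29134 and 14046 at 50 nM. The aba2-1 50 nM libraries all exceeded mock, and the highest was farther above the next than that was above the lowest. GRP3S at 50 nM in aba2-1 was 1.83-fold mock (log2 0.82, SE 0.22, limma, adjusted p = 0.01); the log2 difference was 0.54 without aba2-1 50 nM ABA replicate 2 and no longer passed (adjusted p = 0.098), and it did not pass in a fit on the 2 groups alone (0.21).

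GRP3 held 11223 and 12004 in Col-0 mock, 11555 and 10544 at 10 nM ABA and 10632, 13619 and 10306 at 50 nM. In aba2-1 it held 11040, 9576 and 10168 with mock, 10013, 11697 and 10787 at 10 nM, and 13123, 23275 and 8808 at 50 nM. Both the highest and the lowest GRP3 value of all 28 samples thus came from aba2-1 at 50 nM ABA. Its log2 difference there was 0.44 (SE 0.22, limma, adjusted p = 0.13), and in Col-0 at 50 nM -0.02 (SE 0.24, adjusted p = 1). At these depths GRP3 rested on between 2444 and 19455 reads per sample, so counting error was small beside the spread between libraries.

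In the CA lines GRP3S ran from 10321 in PYR1 CA to 19459 in PYL5 CA, and GRP3 from 9858 in PYL4 CA to 17619 in PYL5 CA; both highest values came from PYL5 CA replicate 2, one of the libraries that stood apart. The largest log2 difference from aba2-1 mock was 0.54 for GRP3 in PYL5 CA (SE 0.22, limma, adjusted p = 0.25), where GRP3S stood at 0.46 (SE 0.22, adjusted p = 0.30). GRP3 in PYL5 CA was 1.48-fold aba2-1 mock, and its libraries lay above those of mock without overlap. The share of loci so separated was not computed. PYL5 CA replicate 3 was also high, with sums of the 5 members of 26487, 41337 and 37206 in replicates 1, 2 and 3. Over the 28 samples the log2 values of GRP3S and GRP3 had a Pearson r of 0.79, which describes samples that share groups and libraries. For AT2G05510 with GRP3 r was 0.08 and with AT2G05540 -0.31.

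A ratio taken within a sample cancels what GRP3S and GRP3 share in that library, and was computed after their values were seen. The ratio of GRP3S to GRP3 was 1.18 and 1.01 in Col-0 mock and 1.32, 1.56 and 1.49 in Col-0 at 50 nM ABA. In aba2-1 it was 1.23, 1.03 and 1.07 with mock, 1.32, 1.32 and 1.31 at 10 nM, and 1.47, 1.25 and 1.59 at 50 nM. Every library of these ABA groups lay above the mock libraries of its genotype, whereas Col-0 at 10 nM (1.21 and 1.04) overlapped them. The mean ratio was higher than mock by 0.36 in Col-0 at 50 nM (exact permutation test, two-sided, p = 0.20, the smallest possible with 3 and 2 libraries). In aba2-1 it was higher by 0.21 at 10 nM (exact permutation p = 0.10, the smallest possible) and by 0.33 at 50 nM (exact permutation p = 0.10, the smallest possible). Such groups are too small for this test to reach 0.05.

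PYL4 CA was the line with the highest ratio of GRP3S to GRP3, at 1.36, 1.21 and 1.42, which overlapped aba2-1 mock (exact permutation test, p = 0.20). PYL5 CA, PYL6 CA and PYR1 CA had means of 1.048 ± 0.05, 1.104 ± 0.117 and 1.095 ± 0.102 (SD, n = 3), beside 1.11 ± 0.11 in aba2-1 mock (exact p = 0.60, 0.90 and 0.80). In all, 8 such comparisons were made, and 0 reached an exact permutation p under 0.05, which these group sizes do not allow.

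**Figure D4:**
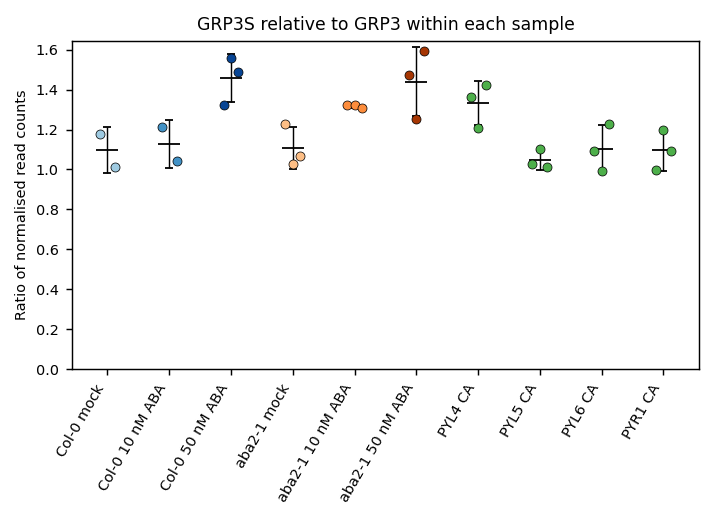
Ratio of the normalised read counts of GRP3S and GRP3 in each sample (vertical axis, from 0), by group; points are samples, horizontal marks are means and bars are SD. Mock groups centre near 1.1, and Col-0 50 nM ABA and both aba2-1 ABA groups lie above the mock libraries of their genotype.

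AT2G05530 was almost silent. Its reads numbered between 0 and 18 per sample, and the normalised counts ran from 0 in aba2-1 10 nM ABA replicate 3 and PYL4 CA replicate 2 to 13.7 in aba2-1 50 nM ABA replicate 3. It passed the filter on low values only through the aba2-1 50 nM ABA libraries, which held 10.2, 8.51 and 13.7, against 2.07, 7.24 and 4.54 in aba2-1 mock. Those libraries were the highest of the series for this gene, but the filter favoured such a difference, so its call between 50 and 10 nM ABA (limma, adjusted p = 0.039) carries no weight.

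GRP9, the gene most like AT2G05510 in coding sequence, was lower in aba2-1 than in Col-0 at 50 nM ABA, and its dose differences did not pass. It was also lower in each CA line than in Col-0 mock. GRP9 held 2745 and 3112 in Col-0 mock, 2888, 2930 and 4014 in Col-0 at 50 nM ABA, 1675, 1720 and 1299 in aba2-1 mock, and 2576, 1972 and 1680 in aba2-1 at 50 nM. Col-0 libraries were above those of aba2-1 at each dose without overlap. With mock alone, 15.6% of tested loci were lower in aba2-1 without overlap. GRP9 at 50 nM was 1.58-fold lower in aba2-1 than in Col-0 (log2 -0.66, SE 0.18, limma, adjusted p = 0.013). This call was lost in a fit on the 2 groups alone (adjusted p = 0.19) and without Col-0 50 nM ABA replicate 3 (0.068). The log2 difference of GRP9 between 50 nM ABA and mock in aba2-1 was 0.40 (SE 0.18, adjusted p = 0.11). The line labelled PYR1 CA had the lowest GRP9 values, 1067, 836 and 1085, and these lay below every aba2-1 mock library (log2 -0.65, SE 0.18, adjusted p = 0.078). Against Col-0 mock the log2 differences were -0.79 in PYL4 CA (limma, adjusted p = 0.049), -0.85 in PYL5 CA (0.029), -1.115 in PYL6 CA (0.016) and -1.56 in PYR1 CA (0.00017). The calls in PYL4 CA, PYL5 CA and PYL6 CA were lost when some single libraries were left out.

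RAB18, a dehydrin gene widely used as a marker of ABA response, served as the reference. It held 16.4 and 32.1 in Col-0 mock and 13.5, 18.1 and 17.0 in aba2-1 mock, so the groups overlapped with mock. Those of AT2G05510 did not, but that contrast chose the gene, so it does not set the 2 genes apart. At 50 nM ABA in aba2-1 RAB18 reached 987, 1505 and 872 (log2 5.997, SE 0.25, limma, adjusted p = 1.6e-13). The line labelled PYR1 CA held 50.0, 38.0 and 54.2 for RAB18, above aba2-1 mock by 1.49 on the log2 scale (SE 0.25, adjusted p = 0.0073), where AT2G05510 differed by 0.19. Whether the 2 genes responded differently was not tested.

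**Figure D5:**
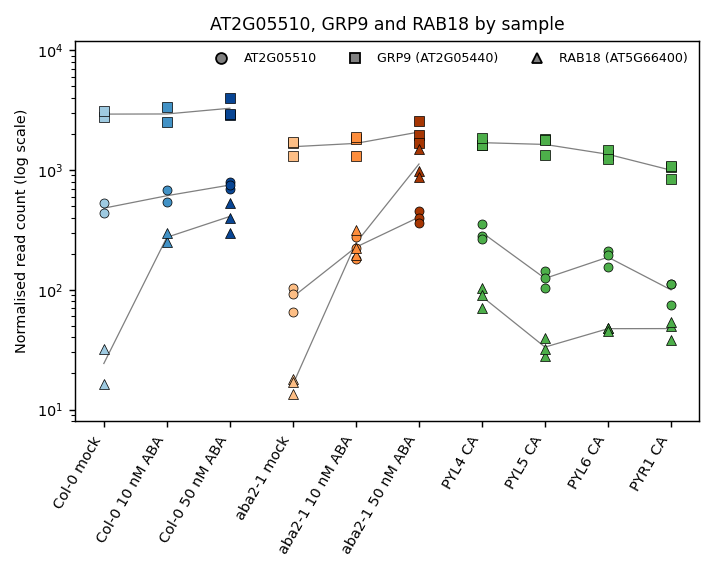
Normalised read count (log axis) of AT2G05510 (circles), GRP9 (squares) and RAB18 (triangles) in each sample, by group; grey lines join group means. RAB18 starts low with mock in both genotypes, AT2G05510 starts lower in aba2-1 than in Col-0 (the contrast that chose it), and GRP9 keeps a gap between genotypes at every dose.

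Few genes of the GRP3 partner list were tested. It held WAK1, KAPP and PSBP-1, a reported partner, and also WAK2 to WAK5, relatives of WAK1 that are not described here as partners. Of these 7 genes, 6 were in the table and 4 were tested. By limma 0 of these 4 were called in any of the 19 comparisons, in which between 0% and 24.8% of all loci passed. In aba2-1 at 50 nM ABA the log2 differences from mock were -0.52 for WAK1 (SE 0.27, adjusted p = 0.16), -0.65 for WAK2 (SE 0.27, unadjusted p = 0.027, adjusted p = 0.082), -0.35 for PSBP-1 (SE 0.20, adjusted p = 0.19) and -0.01 for KAPP (SE 0.10, adjusted p = 0.93). WAK2 was the 1 of the 4 with an unadjusted p under 0.05 there, as were 8397 of all 21023 loci, and the list median was -0.44 against 0.003 over all loci.

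The genes whose log2 values followed AT2G05510 most closely over the 28 samples, among 15162 loci compared, were the vegetative storage protein gene VSP2 (Pearson r 0.94), AT3G53980 (0.92), AT2G16005 (0.92), the tonoplast aquaporin gene TIP2;3 (0.92) and the cytochrome P450 gene CYP71A19 (0.91). GRP9 ranked 23 with r = 0.83 and RAB18 ranked 111 with r = 0.67. For GRP3 the closest were AT5G38720 (0.89), AT5G22320 (0.88), NFU1 (0.88), AT5G57120 (0.88) and the 14-3-3 protein gene GRF10 (0.88), and GRP9 ranked 6057 with r = 0.11. The samples share groups and libraries, so these values are descriptions.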

How the data were processed

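Whole-seedling RNA-seq of 28 samples was analysed. The submitters' processing notes list edgeR 3.28.0, Salmon 1.3.0 and Trimmomatic 0.38 and the build TAIR10, without saying what each was used for; per the labels' protocols, a stranded library kit was used. The authors deposited 1 table of signal (normalised read counts): in every column 100% of values were whole multiples of 1 step, within 0.01 read, and the steps equalled the reciprocals of median-of-ratios size factors. Groups came from the labels. Shared replicate numbers did not pair samples: in 0 of 44 pairs of groups did every same-numbered pair of samples correlate above 0.1.

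The test was limma 3.58.1 in R 4.3.3 on log2(value + 1), with robust shrinkage toward an intensity trend, over all 28 samples in 1 fit and 21023 of 23681 loci with a value of at least 10 in at least 2 samples. P-values were two-sided (F tests aside) and Benjamini-Hochberg adjusted within each of 19 comparisons. Recovered reads were also tested with edgeR 4.0.16 and DESeq2 1.42.0. Other alternatives were a pseudocount of 5, no filter, TMM scaling, a replicate block, the compared groups alone, each sample left out, and, chosen after seeing the data, leaving out the 3 libraries that stood apart. The fits were tested on simulated data. Sequences came from RefSeq TAIR10.1. The text names the 5 members, RAB18, members of fixed lists that were called (otherwise up to 4 with the smallest p), and the 5 loci of highest r with AT2G05510 and with GRP3; GRP9 belongs to the lists of other glycine-rich proteins and of neighbours. Members and lists were chosen with earlier results of these data known.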

Additional observations from a re-analysis of the deposited data

How the results depend on the processing

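Of the alternative values of single genes with a test, 553 kept direction and side of the threshold, 66 lost the call, 3 gained it and 0 changed sign. Of 35 values of the untested mock contrast 1 changed sign, that of AT2G05530, which ran from -0.14 to 0.83 around 0.34 (log2) as libraries were left out. Counts of members called stayed within 1.5 times in 246 cases and moved in 26, and sums stayed in 9 and moved in 1. In fits on the compared groups alone, members called became 1 for Col-0 50 nM ABA against mock, 1 for aba2-1 50 nM ABA against mock, 0 for aba2-1 50 against 10 nM, 1 for aba2-1 against Col-0 at 50 nM, 2 for PYL4 CA against aba2-1 mock, and against Col-0 mock 1 for PYL4 CA, 1 for PYL5 CA and 2 for PYL6 CA. With DESeq2 they were 1 for PYL4 CA and 2 for PYL6 CA against Col-0 mock. Without the 3 libraries that stood apart they were 1 for aba2-1 50 nM ABA against mock, 0 for aba2-1 50 against 10 nM and 2 for PYL6 CA against Col-0 mock. The sum of the 5 members in Col-0 mock was 26500 ± 8.56 (n = 2) and 26828 with TMM scaling.

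With each library left out in turn, members called ranged from 1 to 4 for aba2-1 50 nM ABA against mock and for aba2-1 50 against 10 nM, from 0 to 1 for aba2-1 against Col-0 at 10 nM, from 1 to 3 for the interaction at 50 nM (3 without aba2-1 50 nM ABA replicate 3; these counts include AT2G05510, and those for 50 against 10 nM include AT2G05530), from 0 to 1 for PYL6 CA against aba2-1 mock, from 1 to 2 for PYL5 CA and from 0 to 1 for PYL6 CA against Col-0 mock. Where a Col-0 group of 2 lost a library, the lone sample was assumed to vary like the other groups. The causes were not tested.

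A replicate block left each count of members called within 1.5 times: 3 for aba2-1 50 nM ABA against mock, 2 instead of 3 for aba2-1 50 against 10 nM, and 1 for the interaction at 50 nM, which is AT2G05510. That interaction contains the mock contrast that chose the gene, so its call carries no weight here or when libraries are left out. Replicate numbers shared only a number, with correlations between -0.59 and 0.25. Depth limits AT2G05530, with 0 to 18 reads per sample, and to a lesser extent AT2G05510, with as few as 51.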

Other observations

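Of 13 glycine-rich protein genes outside the cluster, 4 passed in aba2-1 at 50 nM ABA against mock, where 24.8% of all loci passed, so the count does not set the list apart. Among them 3 were higher, AT4G30460 (log2 1.54, SE 0.20, limma, adjusted p = 1.1e-05), AT5G46730 (0.69, SE 0.20, adjusted p = 0.015) and AT1G04800 (0.64, SE 0.21, adjusted p = 0.031), and 1 was lower, GRP8 (-0.40, SE 0.10, adjusted p = 0.0056), which encodes a glycine-rich RNA-binding protein and not a wall protein. The list median was 0.09, against 0.003 over all loci. AT5G46730 was also higher in PYL4 CA than in aba2-1 mock (0.76, SE 0.20, adjusted p = 0.038), the 1 of 13 called there, where 2.48% of loci passed. At 50 nM ABA, where 21.1% of loci differed between genotypes, aba2-1 was below Col-0 for GRP7, an RNA-binding protein of the circadian system (-0.98, SE 0.14, adjusted p = 5.8e-05), for GRP8 (-0.53, SE 0.10, adjusted p = 0.00066), for AT1G04660 (-1.43, SE 0.51, adjusted p = 0.048) and for GRP9, and above it for AT1G04800 (0.78, SE 0.21, adjusted p = 0.013).

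Loci that neighbour the cluster, from AT2G05200 to AT2G05700, numbered 23 in the table, of which 17 were tested. In aba2-1 at 50 nM ABA 3 of the 17 passed against mock, beside 24.8% of all loci. Of these, 1 was higher, AT2G05590 (log2 0.53, SE 0.13, limma, adjusted p = 0.0075), and 2 were lower, AT2G05220 (-0.68, SE 0.24, adjusted p = 0.041) and PGR5, a gene of photosynthetic electron flow (-0.73, SE 0.26, adjusted p = 0.046). Their median was 0.06, against 0.003 over all loci.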
